A study of Mus musculus with 12 samples.

Results

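FoxP3 is a forkhead protein that defines regulatory T (Treg) cells. Its binding was examined across a 300 kb stretch of mouse chromosome 12 that holds 3 genes of the AP-1 and related bZIP families, Fos, Jdp2 and Batf. Members were all ChIP-seq peaks with a summit, the point of highest signal, between positions 86800000 and 87100000 (mm9). They were 19 of the 53228 peaks that the 6 deposited lists hold on the numbered chromosomes, X and Y, the only peaks counted here. Peaks sharing at least 1 bp across libraries were merged, which gave 8 regions of 24765 in all. The peaks were chosen by summit position, but the stretch itself was selected on peak presence and pileup rank in the 2 genotypes, so every value below is a description and no test was run on it.

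The cells were freshly isolated, untreated CD4+ hCD2+ Treg cells of C57BL/6J mice, taken magnetically from lymph nodes and spleen by a human CD2 marker that both lines carry (FoxP3WT:hCD2 and FoxP3A384T:hCD2). The WT line has wild-type FoxP3 and the A384T line has FoxP3 with the substitution A384T, and the series asks where the 2 proteins bind. The labels give neither the age of the mice nor whether they were pooled, and no expression values were at hand to check the cell type. Each genotype had 3 ChIP libraries (called WT 1 to 3 and A384T 1 to 3 after their replicate numbers), with 17520951 to 25386770 unique tags and lists of 1746 to 20723 peaks, and the replicate 1 libraries (51 bp tags) had the longest list of their genotype, while the others had 49 bp tags. The antibody was a rabbit polyclonal against FoxP3, and the 6 input libraries enter no comparison of their own here.

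AP-1 factors are dimers of proteins with a basic DNA-binding region and a leucine zipper. Fos is an immediate-early gene, switched on within a short time of T cell receptor or growth factor signals, and its protein binds DNA as a partner of Jun proteins. Jdp2 encodes a Jun dimerization protein that acts mostly as a repressor at AP-1 sites. Batf encodes a small bZIP protein without a transactivation domain of its own, which pairs with Jun proteins and binds with IRF4 at composite sites, and it is known to be needed for effector Treg cells and for Treg cells of non-lymphoid tissue. The forkhead domain, where A384T lies, is the DNA-binding part of FoxP3.

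The promoters of the 2 genes that lay beside peaks are shown to give the sequence context of the locus. They run from 250 bases before to 50 bases after the start in RefSeq's annotation of GRCm38.p6, chr12:85686470-85686769 for Batf and chr12:85473640-85473939 for Fos, both on the plus strand. This is another build than the mm9 of the peaks, so whether a peak covers these bases was not established. Capitals mark matches to a forkhead pattern with an open base (TGTTNAC on either strand), a pattern added after the sequences were seen.
Batf: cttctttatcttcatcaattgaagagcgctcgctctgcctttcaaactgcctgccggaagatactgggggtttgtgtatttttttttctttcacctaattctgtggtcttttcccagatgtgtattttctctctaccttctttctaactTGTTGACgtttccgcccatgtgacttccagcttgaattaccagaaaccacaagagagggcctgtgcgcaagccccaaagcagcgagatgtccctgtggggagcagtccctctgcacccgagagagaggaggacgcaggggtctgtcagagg
Fos: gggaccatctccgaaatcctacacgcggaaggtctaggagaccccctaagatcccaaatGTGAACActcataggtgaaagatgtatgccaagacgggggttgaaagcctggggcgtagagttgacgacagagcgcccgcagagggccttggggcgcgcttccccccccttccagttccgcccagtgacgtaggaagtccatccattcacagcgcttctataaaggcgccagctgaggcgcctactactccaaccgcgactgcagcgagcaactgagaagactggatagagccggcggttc
The Batf promoter holds 1 such match, starting 101 bases before the start, and the Fos promoter holds 1, starting 191 bases before it. Of 32851 reference promoters of this length 10.4% hold this pattern. The stricter forkhead pattern TGTTTAC (in 3.65% of promoters), which is one form of the pattern above, the shorter TGTTT contained in it (50.5%), the AP-1 pattern TGANTCA (7.81%) and the CRE pattern TGACGTCA (1.79%) had no match on either strand in the 1 Batf, 1 Fos and 3 Jdp2 promoters of the reference. The NFAT pattern GGAAA (61.3%) had 2 matches in the Batf promoter and 1 in 1 of the Jdp2 promoters. These are letters in a window and not sites of binding, and the sequence under the peaks themselves was not used here.

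FoxP3 peaks lay at the approximate positions of Batf and of Fos, and none lay at that of Jdp2. Gene positions in mm9 are known here only roughly, about 86.81 Mb for Fos, 86.94 to 86.98 Mb for Jdp2 and 87.03 Mb for the start of Batf, so a peak can be tied to a gene to within about 10 kb only. On the Fos side 5 regions lay between 86809697 and 86827202. On the Batf side 3 regions lay between 87027286 and 87046686. Between them 200.1 kb held no peak in any of the 6 lists, and this stretch includes all of the approximate position of Jdp2, whose nearest summit was about 50 kb away. In the reference gene order the genes between Fos and Batf are Jdp2, 2 lncRNA genes (Gm32296 and Gm32348) and 1 pseudogene (Gm33312). A missing peak means that no signal passed the authors' q-value cutoff of 1e-10, and weaker binding would not be listed.

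**Figure D1:**
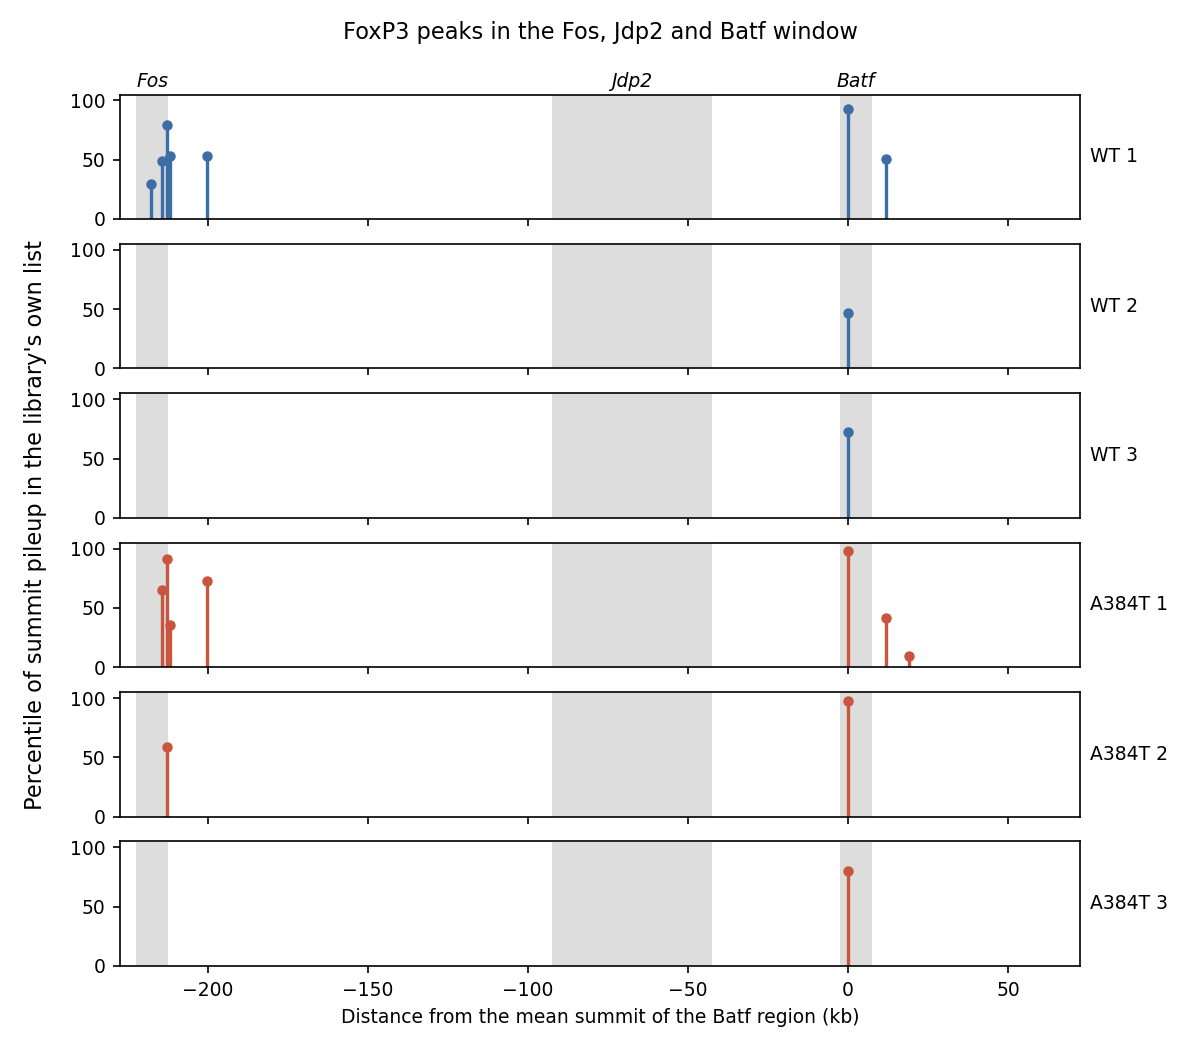
Peaks of each library across the stretch, by distance from the mean summit of the Batf region (kb, horizontal), with the percentile of the summit pileup in the library's own list as height; grey bands are the approximate gene positions widened by 5 kb to each side. Every library has a peak at Batf, 3 have peaks near Fos, and none has a peak at Jdp2.

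WT 1, WT 2 and WT 3 had 7, 1 and 1 peaks in the stretch, and A384T 1, A384T 2 and A384T 3 had 7, 2 and 1. The means (SD, n = 3 each) were 3 ± 3.46 for WT and 3.33 ± 3.21 for A384T, and the genotypes overlapped. Per 1000 listed peaks the stretch held 0.389 ± 0.164 for WT and 0.391 ± 0.0938 for A384T (SD over 3 libraries), again with overlap. The 7 peaks of each replicate 1 library were matched or exceeded elsewhere in its list: 24.9% of the occupied 300 kb windows of WT 1 and 22.5% of those of A384T 1 held as many or more.

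Of the 8 regions, 1 had a peak in all 6 libraries, a class that holds 3.88% of all joined regions. A peak in at least 1 library of each genotype was found for 6 of the 8, beside 56% of all regions. That count rests on the replicate 1 libraries, being 1 without WT 1 and 2 without A384T 1. A peak in a lone library was found for 2 of the 8, beside 42.4% of all regions. In 6 of the 8 all peaks came from replicate 1 libraries, beside 71.1% of all regions. More A384T than WT libraries had a peak in 2 of the 8 regions (30.7% of all), and more WT than A384T libraries in 1 of the 8 (31% of all). No region of the stretch had a peak in all 3 libraries of a genotype and none of the other, classes that hold 0.186% (A384T) and 0.0121% (WT) of all regions.

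The region found in every library, called the Batf region here, ran from 87027286 to 87027794, which is at the approximate start of Batf within the rounding of that position. Its 6 summits lay within 79 bp of each other, with an SD of 28.6 bp. In WT 1 the summit was at 87027577, in WT 2 at 87027500 and in WT 3 at 87027550. In A384T 1 it was at 87027551, in A384T 2 at 87027579 and in A384T 3 at 87027557. The summits of the genotypes thus interleaved, and the same short stretch was called in WT and A384T cells.

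**Figure D2:**
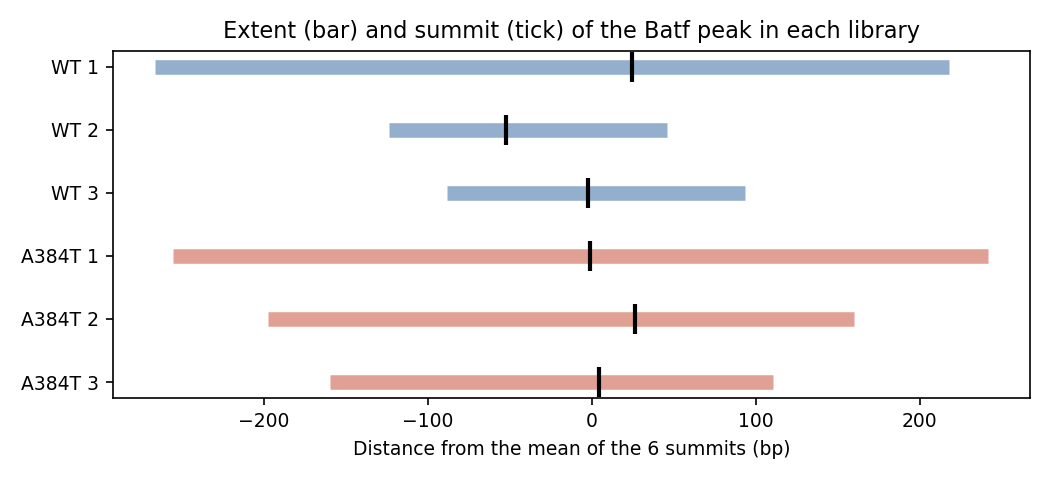
Peak extent (bars) and summit (black ticks) of the Batf region in each library, in bp from the mean of the 6 summits (horizontal). All 6 bars overlap and the summits fall within 79 bp, while the replicate 1 bars are the longest of their genotype.

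The summit pileup, the number of extended ChIP tags that overlap the summit, was 118 in WT 1, 39.6 in WT 2 and 49 in WT 3. In A384T 1, A384T 2 and A384T 3 it was 170, 129 and 59. The authors' caller scaled down whichever of ChIP and control had more tags, so the pileups of WT 2 and A384T 2 stand for 45 and 136 tags before scaling. These values share no scale between libraries and are read by order within a library or, further below, relative to the library's own median. In its own list the Batf peak was number 1401 of 20723 in WT 1, 912 of 1746 in WT 2 and 1056 of 3905 in WT 3, counted from the highest pileup. In the A384T lists it was number 360 of 18147, 185 of 6657 and 397 of 2050 in replicates 1, 2 and 3. As percentiles these are 93.1, 46.9 and 72.2 in WT and 98.0, 97.2 and 80.1 in A384T, and the genotypes overlap because WT 1 lies above A384T 3. Whole lists of such different lengths are no common yardstick, so the rank was also taken inside the 962 regions that all 6 libraries share.

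Within the shared regions the Batf region stood in the lower part of every WT library and in the upper part of every A384T library. By summit pileup it was at the 26.1, 25.2 and 26.7 percentile in WT 1, WT 2 and WT 3, and at the 81.0, 86.2 and 71.3 percentile in A384T 1, A384T 2 and A384T 3. The means (SD, n = 3 each) were 26.0 ± 0.785 for WT and 79.5 ± 7.54 for A384T, which differ by 53.5 points. The genotypes did not overlap, and every A384T library was above every WT library, as was the case for 12.4% of the shared regions. Over all shared regions the median difference was -0.996 points, with quartiles at -10.8 and 10.6, and 12 of the 962, the Batf region included, had a difference as high. Within the 4 libraries with 49 bp tags, ranked among the regions those 4 share, the means were 25.7 in WT and 78.8 in A384T, a difference of 53.1 points (n = 2 each). The 51 bp libraries gave 1 value per genotype, 26.1 for WT 1 and 81.0 for A384T 1.

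**Figure D3:**
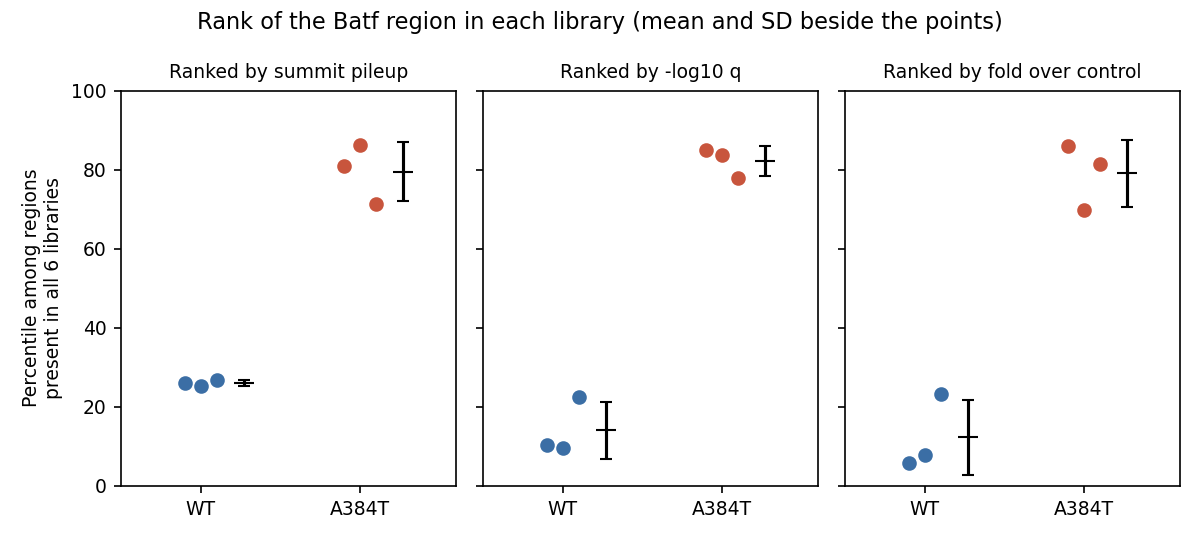
Percentile of the Batf region among the 962 regions present in all 6 libraries (vertical), ranked by summit pileup, -log10 q or fold over control; points are libraries, and the black mark and bar beside them give the mean and SD (n = 3). In each panel all A384T libraries lie above all WT libraries.

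On a proportional scale the summit pileup of the Batf region was 0.819, 0.818 and 0.803 of the library's own median over the shared regions in WT 1, WT 2 and WT 3. In A384T 1, A384T 2 and A384T 3 it was 1.47, 1.51 and 1.26 times that median. The WT libraries were thus all below their median and the A384T libraries all above it. Every A384T ratio was above every WT ratio, as for 12.4% of the shared regions. On the log2 scale the means (SD, n = 3 each) were -0.30 ± 0.016 for WT and 0.49 ± 0.143 for A384T, which differ by 0.79. Of the 962 regions 22 (2.29%) differed by as much or more in this direction.

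**Figure D4:**
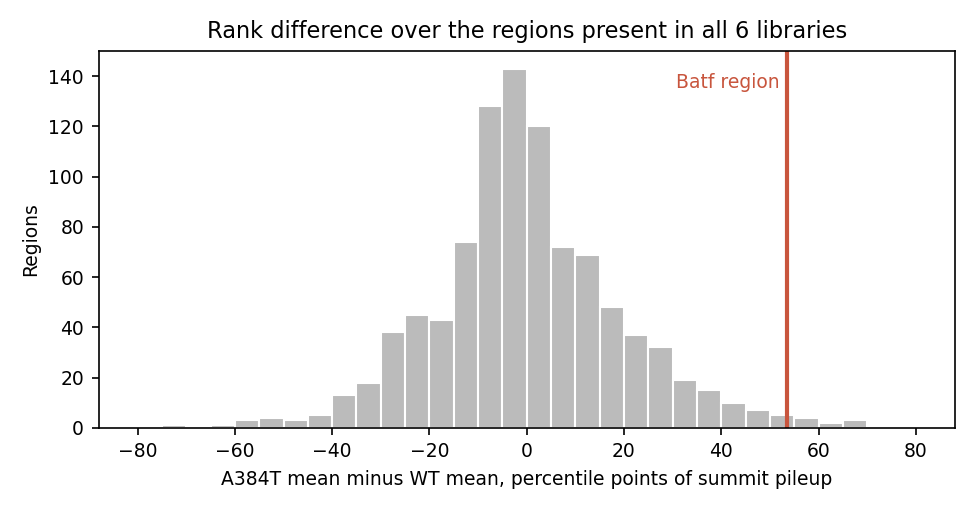
Difference between the A384T and WT mean percentiles of summit pileup (horizontal, percentile points) for the 962 regions present in all 6 libraries, as a histogram of regions (vertical), with the Batf region as a red line. The Batf region, at 53.5 points, lies at the right edge of the distribution, and 11 other regions lie as far or farther.

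The authors' q-values and folds, which also use the control library, placed the Batf region lower in WT than the pileup did and about as high in A384T. Its -log10 q was 97.9, 17.9 and 34.3 in WT 1, WT 2 and WT 3, and 222, 137 and 52.3 in A384T 1, A384T 2 and A384T 3. Ranked by it inside the shared regions, the Batf region was at 14.1 ± 7.20 for WT and 82.1 ± 3.82 for A384T (SD over 3 libraries), with no overlap, as for 11.5% of the shared regions in this direction. Its fold over control was 15.6, 6.76 and 11.0 in WT and 42.2, 25.9 and 16.3 in A384T. Ranked by fold it was at 12.2 ± 9.53 for WT and 79.0 ± 8.42 for A384T (SD over 3 libraries), again without overlap, as for 7.59% of the shared regions. The differences were 68.1 points by -log10 q and 66.8 points by fold. By -log10 q 2 other shared regions differed as much, on chromosome 7 from 80682526 to 80683296 and on chromosome 11 from 99099807 to 99100245. By fold the chromosome 7 region alone did, and both regions were also among the 11 by pileup.

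Part of the fold and q-value depends on the control. The local control background that the caller's fold implies, as (pileup + 1)/fold - 1, was 6.63, 5 and 3.54 at the Batf region in WT 1, WT 2 and WT 3, and 3.05, 4 and 2.68 in A384T 1, A384T 2 and A384T 3. Relative to the library's median over the shared regions this was 2, 1.67 and 1.26 in WT and 1, 1.33 and 0.902 in A384T. By that ratio the control was thus mostly higher at Batf in the WT libraries, with WT 3 below A384T 2. The backgrounds are small, and the library medians were 2.80 to 3.31, so the ratios rest on low control signal. The summit pileup is counted from ChIP tags, but the shared regions it was ranked among had each passed a q-value cutoff that uses the control. The part of the control in the rank differences was not tested.

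The Batf peak was 485, 170 and 183 bp long in WT 1, WT 2 and WT 3, and 498, 358 and 271 bp in A384T 1, A384T 2 and A384T 3. Among the shared regions its length was at the 37.9, 24.3 and 7.85 percentile in WT and at the 60.4, 49.9 and 75.7 percentile in A384T. Every A384T library was above every WT library, as for 7.07% of the shared regions. Length and pileup come from the same signal and are not separate measures.

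The other shared regions on this part of chromosome 12 did not differ by as much. Within 2 Mb of the middle of the stretch there were 4. The nearest, from 86787899 to 86788494, was at the 2.55, 29.9 and 4.21 percentile of pileup in WT 1, WT 2 and WT 3 and at 27.1, 63.1 and 13.6 in A384T 1, A384T 2 and A384T 3, a difference of 22.4 points with overlap. The other 3 had differences of 13.4, -9.91 and -6.84 points.

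When all lists were shortened to 1746 peaks, the strongest by -log10 q, the Batf region was the only region of the stretch that remained in any list. It was kept in WT 2, WT 3 and all A384T libraries, and it fell out of WT 1, where its -log10 q of 97.9 was below the 109 needed. In these lists of equal length its pileup was at the 46.9 and 41.5 percentile in WT 2 and WT 3, and at 81.2, 91.5 and 77.3 in A384T 1, A384T 2 and A384T 3. The A384T libraries were all above WT 2 and WT 3, with WT 1 absent from this comparison. How many other regions separate in this way in these lists was not counted.

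On the Fos side the region found most often ran from 86814419 to 86814969, 213 kb from the Batf region. It had a peak in WT 1, A384T 1 and A384T 2. The summit pileup was 76 in WT 1, 111 in A384T 1 and 48.3 in A384T 2, and the fold was 7.83, 17.3 and 8.21 in the same order. Its 3 summits lay within 31 bp of each other. Among the 5805 regions that these 3 libraries share, it was at the 41.6 percentile of pileup in WT 1, 75.0 in A384T 1 and 54.6 in A384T 2. With 1 WT library this order has no replicate check, and its share over the 5805 regions was not computed. The region had no peak in WT 2, WT 3 or A384T 3, which is also the case for 41.3% of those 5805 regions.

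The other Fos-side regions were seen in replicate 1 libraries alone. From 86813143 to 86813391, from 86815404 to 86815685 and from 86826927 to 86827202 both WT 1 and A384T 1 had a peak, with folds of 6.29 to 17.0. From 86809697 to 86809933 WT 1 alone had one, at a fold of 13.2 and the 29.4 percentile of pileup in its list. On the Batf side a second region from 87039131 to 87039452, 11.7 kb from the Batf region, had a peak in WT 1 (fold 6.43) and A384T 1 (fold 9.76). A region from 87046509 to 87046686 had a peak in A384T 1 alone, at a fold of 8.85 and the 9.66 percentile of pileup. By pileup both regions seen in 1 library were thus in the lower part of its list, while by fold the WT 1 region was at the 61.7 percentile and the A384T 1 region at 23.1.

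The 2 replicate 1 libraries have lists of like length and share tag length, so the 6 regions of the stretch that both hold were compared between them, with 1 library per genotype and hence no replicate check. Ranked by pileup among the 13567 regions that both hold, 5 of the 6 stood higher in A384T 1, beside 50.2% of all such regions. At the main Fos region the percentile was 68.7 in WT 1 and 88.2 in A384T 1. At the Fos-side region 214 kb from Batf it was 27.9 and 56.0, and at that 200.5 kb from Batf it was 33.8 and 65.6. The Batf region, high in both, was at 89.6 and 97.3, and 33.8% of the pair's regions had a difference as high. Over the 6 regions of the stretch this share ran from 7.45% to 64.4%. At the second Batf-side region the percentiles were 29.9 and 32.4. The exception was the Fos-side region 212 kb from Batf, at 33.8 in WT 1 and 27.5 in A384T 1.

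Ranked by fold all 6 stood higher in A384T 1, beside 49.2% of all such regions, and by -log10 q likewise all 6, beside 49.1%. The main Fos region had the widest gap by fold, at the 17.4 percentile in WT 1 and 72.4 in A384T 1. By fold 3.97% of the pair's regions had a difference as high as the main Fos region. At the Batf region this share was 13.1%, and it reached 44.7% over the 6. By -log10 q it was 28.0% at the Batf region and ran from 7.38% to 46.7% over the 6. The implied control background was lower in A384T 1 at all 6 regions, beside 55.6% of all such regions. It was 3.87 to 8.83 in WT 1 and 3.05 to 5.46 in A384T 1, where the medians over all regions of the pair were 3.68 and 3.52. Its part in the order by fold and -log10 q was not tested.

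**Figure D5:**
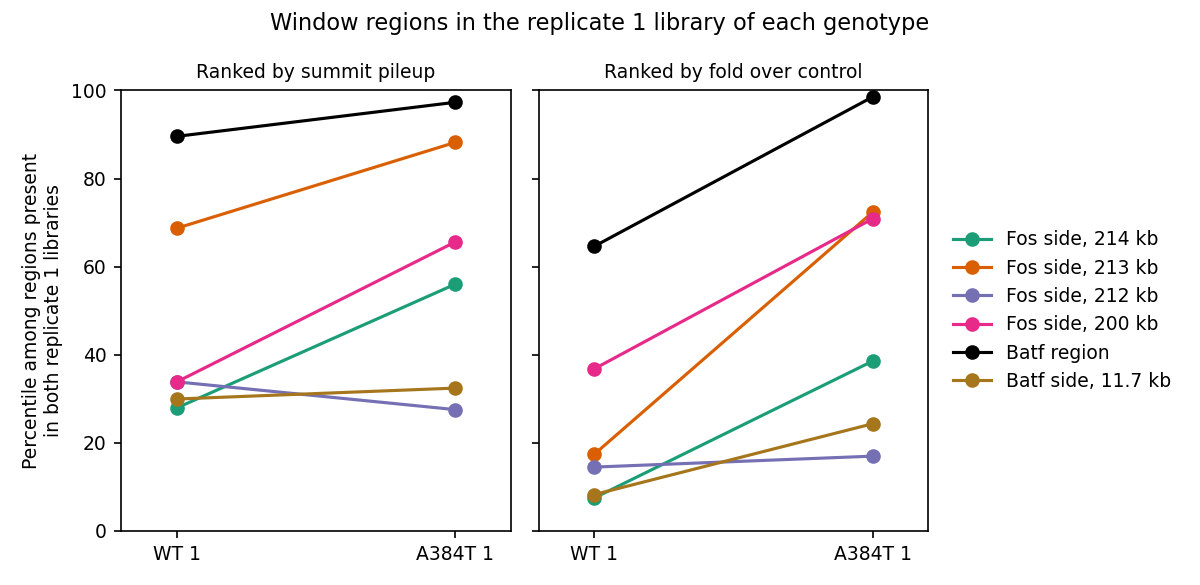
Percentile among the 13567 regions that WT 1 and A384T 1 both hold (vertical), ranked by summit pileup (left) or fold over control (right), for the 6 regions of the stretch; each line is a region, named by its side and its distance from the Batf region. By pileup 5 lines rise from WT 1 to A384T 1 and 1 falls, and by fold all 6 rise.

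The edges of the stretch fell in places with few peaks on the Batf side and next to a peak on the Fos side. Just below the lower edge 5 libraries had a peak with its summit 3.45 to 3.48 kb outside, at folds of 18.8 in WT 1, 11.7 in WT 3, 12.4 in A384T 1, 9.95 in A384T 2 and 7.25 in A384T 3. In WT 2 the nearest peak below lay 11.7 kb outside, at a fold of 10.6. The first summit inside lay 9.79 kb from this edge, in WT 1. At the upper edge the last summit inside was 53.4 kb away and the first outside 59.7 kb away, both in A384T 1.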

How the data were processed

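FoxP3 ChIP-seq was done on 6 libraries, 3 per genotype, grouped by sample title. Bowtie2, MACS2 and the build mm9 stand in the submitters' processing notes. Per the file headers, MACS 2.1.0.20140616 called peaks on each library against 1 control library of its own, with 1 tag kept per position and a q-value cutoff of 1e-10. The deposited lists give the summit pileup (a signal), peak length, the -log10 p-value and -log10 q-value, and the fold (a ratio to local control). Peaks depend on library and control, so values were compared by presence and by rank within a library. The pileup of the Batf region was also compared relative to the library's median. The implied control background was compared in that way and by its value.

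Peaks outside the numbered chromosomes, X and Y were dropped before any count, and the others were joined by an overlap of at least 1 bp. A region's value in a library is that of its highest peak, and percentiles are average ranks over the set named. The 3 genes, the stretch and all lists were chosen with earlier results of these data known. Regions in all 6 libraries are described in full, the others more briefly. No test was run, and 3 against 3 could not go below an exact p of 0.1. Joining and ranking were tested on simulated lists of 3000 regions. Those regions were evenly spaced and the lists nearly equal in length, so crowded peaks and lists of unequal length were not tested. Neighbouring genes and promoters came from RefSeq (GRCm38.p6), with symbols matched for all 3 genes, and no coordinates were moved between builds. Other AP-1 genes were not analysed here. The ratio to the median, the 49 bp subset and the pattern TGTTNAC were added after the values were seen. Python 3.11.15, numpy 2.4.6, pandas 2.3.3, scipy 1.17.1 and matplotlib 3.10.9 were used.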

Additional observations from a re-analysis of the deposited data

How the results depend on the processing

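Of 65 alternatives to 6 values, 51 left the value within the spread between libraries or a count within a factor of 1.5. A further 14 moved it, and none reversed the rank difference at Batf. That rank difference stayed within the spread in 7 of its alternatives and moved in 6. The differences in mean peaks per library and per 1000 listed, 0.333 and 0.00246, were small beside spreads of 3.34 and 0.134. Most alternatives to these 2 therefore counted as within the spread even where the sign changed. The 51 include the 49 bp subset, added after the values were seen, and the replicate block described below, which was the same by construction. The rank difference at Batf, 53.5 percentile points by pileup, was 68.1 ranked by -log10 q and 66.8 by fold. It was 39.2 in lists of equal length (over 2 WT and 3 A384T libraries) and 21.0 in whole lists, where the genotypes overlapped. Leaving out each library in turn gave 42.8 to 53.6, without overlap, but how many other regions then separate was not counted. Regions of the stretch in any library, in both genotypes and in every library numbered 1, 1 and 0 in lists of equal length, against 8, 6 and 1. With -log10 q of at least 20 the number in every library was 0, since WT 2 lost its Batf peak at 17.9. Leaving out each library gave 1 to 6 regions in both genotypes. The A384T minus WT difference in peaks per 1000 listed, 0.00246, was 0.191 in lists of equal length and 0.210 with -log10 q of at least 20, where WT 1 and WT 2, in that order, had no peak left at Batf. It was -0.0384 in the narrowed stretch and -0.0639 to 0.0944 with a library left out, so its sign is not settled. In mean peaks per library the difference, 0.333, ran from -1.5 to 2.33 with a library left out, within the spread between libraries. Taken within replicate numbers, as in a replicate block added after the values were seen, the pileup rank difference at Batf was 54.9, 61.0 and 44.6 points for numbers 1, 2 and 3, with the same mean of 53.5 by construction; the labels do not say that equal numbers mark paired samples. Binding below the cutoff was not measured, and the longest list of each genotype came from its library with the fewest unique tags.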
